A study of Mus musculus with 10 samples.

Results

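The 10 genes described here are the glucocorticoid receptor gene Nr3c1, the mineralocorticoid receptor gene Nr3c2, and 8 genes known to respond to glucocorticoids, namely Fkbp5, Tsc22d3, Sgk1, Zbtb16, Pdk4, Hif3a, Mt1 and Mt2. They were chosen by name and matched to mouse Ensembl identifiers, and all 10 were found among the 22024 genes of the count table. All 10 also passed the filter on low counts, which kept 15191 genes for testing. The libraries came from polyA RNA of the lumbar cord of 10 female mice aged 3 months, 1 library per animal. The 5 M337V mice (numbered 1, 2, 3, 7 and 9) had a human genomic BAC with TARDBP bearing the M337V mutation, exchanged into the Rosa26 locus by PhiC31 integrase. The 2 WT mice (8 and 10) had the BAC without the mutation at that locus, and the 3 NTg mice (4, 5 and 6) were nontransgenic. The animals were C57BL/6 or backcrossed to C57BL/6J, controls were littermates of the same age, and no change to the mouse Tardbp gene is described. Whether the transgenic animals held 1 or more copies of the BAC, their litters, and the hour and manner of death were not given in the sources used here.

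Glucocorticoids such as corticosterone cross the cell membrane and bind a receptor held ready by heat shock proteins. The bound receptor enters the nucleus and binds palindromic DNA sites, the glucocorticoid response elements, where it raises the transcription of nearby genes. The mineralocorticoid receptor binds the same hormones with higher affinity, and in brain and cord glucocorticoid-responsive transcripts rise with stress and follow the daily rhythm of the adrenal hormones. Several targets restrain the pathway in turn: FKBP5 lowers the affinity of the receptor for hormone, and the protein encoded by Tsc22d3 (GILZ) carries part of the anti-inflammatory action. Metallothioneins respond to glucocorticoids and also to zinc and copper through a separate metal response element.

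Promoters of 8 of the 10 genes were searched, at 15 start sites taken from the RefSeq table (GRCm38.p6). Those of Nr3c1 and Zbtb16 were not searched, so their motifs are not known here. The 250 bases before each start were searched on both strands for the glucocorticoid response element GNACANNNTGTNC and for the metal response element core, TGCACNC or TGCGCNC. The first motif was present in 0.387% of 32851 mouse promoters of that length, and the second in 21.4%. The promoters below are shown because they held the full glucocorticoid element or the most copies of the metal core, with every match in capitals. All are on the plus strand and end at the base before the RefSeq start: Sgk1 is the fifth of its 6 listed starts (chr10:21993640-21993889), Mt1 lies at chr8:94178839-94179088 and Mt2 at chr8:94172368-94172617.
Sgk1: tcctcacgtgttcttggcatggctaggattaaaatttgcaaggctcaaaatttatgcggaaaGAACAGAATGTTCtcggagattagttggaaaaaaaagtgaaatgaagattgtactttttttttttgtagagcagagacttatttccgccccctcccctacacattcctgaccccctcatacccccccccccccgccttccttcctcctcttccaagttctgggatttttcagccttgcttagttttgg
Mt1: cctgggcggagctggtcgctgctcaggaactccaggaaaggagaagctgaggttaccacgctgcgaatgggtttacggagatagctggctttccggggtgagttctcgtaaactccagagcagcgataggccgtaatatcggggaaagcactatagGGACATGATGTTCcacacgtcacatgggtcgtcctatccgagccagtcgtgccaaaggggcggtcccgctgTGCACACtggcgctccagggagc
Mt2: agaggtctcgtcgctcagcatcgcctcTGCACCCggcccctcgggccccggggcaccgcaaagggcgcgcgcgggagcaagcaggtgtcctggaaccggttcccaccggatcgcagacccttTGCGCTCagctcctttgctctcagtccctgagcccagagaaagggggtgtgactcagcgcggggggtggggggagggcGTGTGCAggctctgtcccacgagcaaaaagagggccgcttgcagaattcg

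In Sgk1 the capitals mark the glucocorticoid element GAACAGAATGTTC at positions -188 to -176 from that start, which is 951 bases before the next listed start. In Mt1 they mark the glucocorticoid element GGACATGATGTTC at -94 to -82 and a metal core at -23 to -17. Mt2 held 3 metal cores and no match to the glucocorticoid element within its 250 bases. The Mt2 and Mt1 genes are neighbours on chromosome 8, with 5513 bases between them. Hif3a and Nr3c2 held 1 metal core each, and the listed promoters of Fkbp5, Pdk4 and Tsc22d3 held neither motif. These matches describe letters in a short window, and the deposited data hold no measure of receptor binding.

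Library totals ran from 18724888 to 21041474 counts, and levels are given below as CPM, counts scaled to the library size after TMM normalisation. Human TARDBP stood at 114 to 141 CPM in the 7 transgenic libraries, with 1 count in NTg 5 and 4 counts in NTg 6. The library labelled NTg 4 held 2415 counts of it (118 CPM), which goes against its label, so calls against NTg are also given without it. The lumbar label was read against 10 tested caudal Hox genes, whose summed level was 12.6 CPM in WT 8, with 5 of the 10 at 0 counts, 38.8 CPM in M337V 3 and 117 to 224 CPM elsewhere. Summed skeletal muscle and fat markers ran from 18.1 CPM in WT 10 to 951 CPM in NTg 6. Neuron and astrocyte markers were present in every library, with summed levels of 7832 to 9697 CPM and 8716 to 11064 CPM. The comparisons of M337V and of WT with NTg share the 3 NTg libraries.

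Per kilobase of exon, the metallothionein genes had the highest levels of the 10 genes, with 198 CPM per kb for Mt2 and 152 for Mt1. Tsc22d3 followed at 47.8 CPM per kb, Sgk1 at 22.9 and Nr3c1 at 17.8. Pdk4 (8.46) and the mineralocorticoid receptor gene Nr3c2 (8.22) had nearly the same level per kb. Zbtb16 (4.08), Fkbp5 (2.32) and Hif3a (1.08) were lowest. On this scale the glucocorticoid receptor gene stood above the mineralocorticoid receptor gene. Even Hif3a had at least 75 counts in every library, and the other 9 genes had at least 361.

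**Figure D1:**
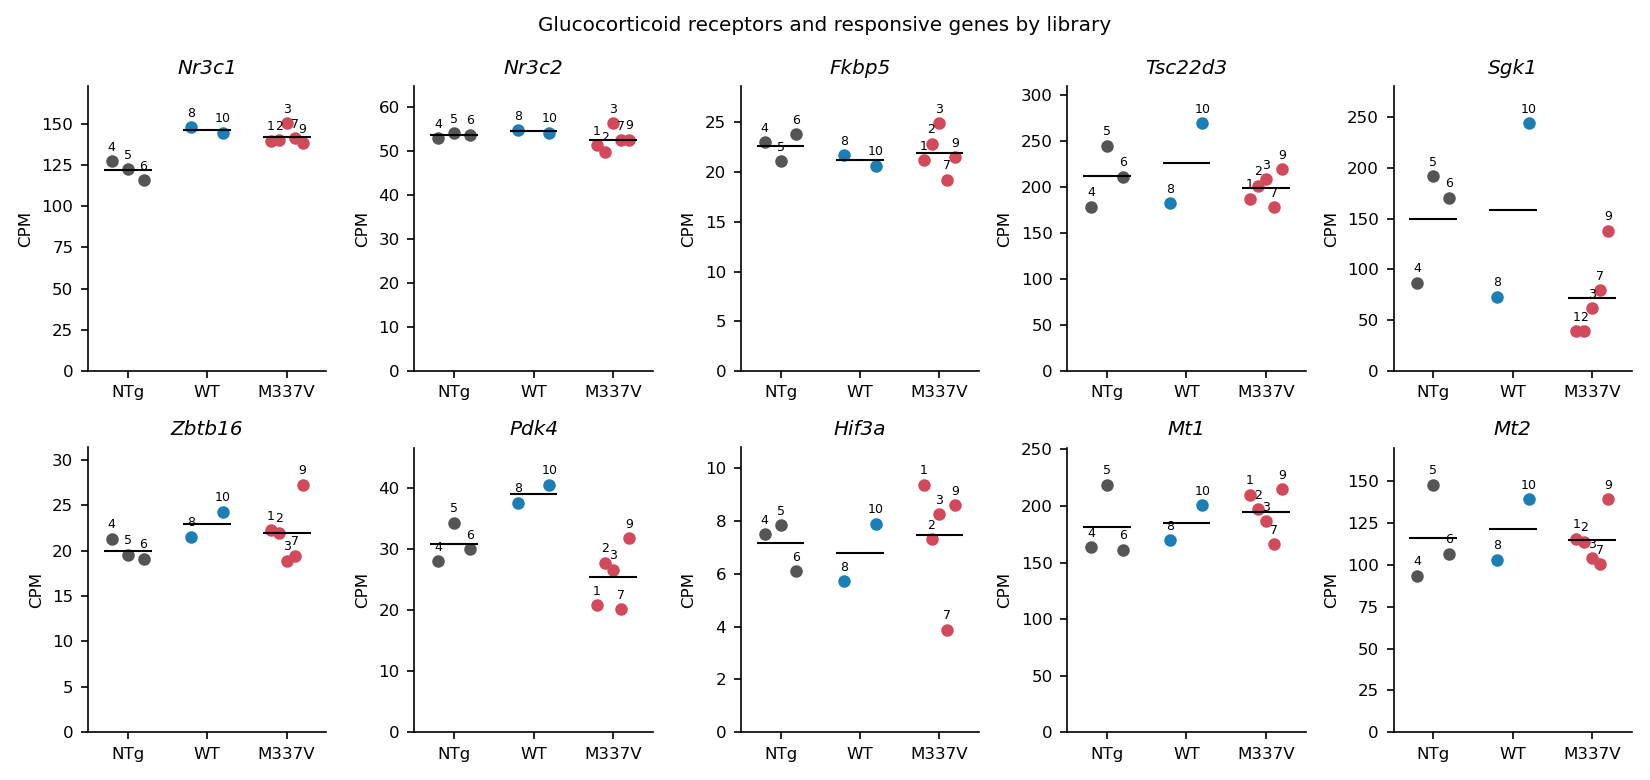
Levels of the 10 genes in CPM (y axis, from 0) in each library, with animal numbers beside the points and the group mean as a line. NTg has 3 libraries (the library labelled NTg 4 holds human TARDBP reads), WT 2 and M337V 5. Nr3c1 separates NTg, at 116 to 127 CPM, from the transgenic libraries at 138 to 150 CPM, while Sgk1 is spread from 39.1 to 244 CPM.

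Nr3c1 (ENSMUSG00000024431) encodes the glucocorticoid receptor and lies on the minus strand of chromosome 18 (GRCm38, 39410545 to 39519421). Its levels were 127, 122 and 116 CPM in NTg 4, 5 and 6, then 148 and 145 CPM in WT 8 and 10, and 140, 140, 150, 141 and 138 CPM in M337V 1, 2, 3, 7 and 9. Every transgenic library was above every NTg library, and WT and M337V overlapped. In M337V against NTg the log2 difference was 0.22 ± 0.05 (SE), a 1.16-fold higher level, with adjusted p = 0.0319 in edgeR's quasi-likelihood test with Benjamini-Hochberg adjustment. In WT against NTg it was 0.26 ± 0.06 (1.20-fold, adjusted p = 0.0282), and in M337V against WT it was -0.04 (adjusted p = 0.899). Nr3c1 was the only one of the 10 genes called in either comparison with NTg, where 4.29% (M337V) and 5.64% (WT) of all tested genes were called. It was also the only one of the 10 whose libraries did not overlap between M337V and NTg, which held for 18.1% of all tested genes.

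Without the library labelled NTg 4 the Nr3c1 difference was 0.25 for M337V (adjusted p = 0.0478) and 0.30 for WT (adjusted p = 0.0401). The M337V call was lost without NTg 5 (adjusted p = 0.0698), NTg 6 (0.179), M337V 2 (0.0714) or M337V 3 (0.0516), and without M337V 1 to 3 together (0.235), in edgeR's test. The WT call was lost without NTg 5, NTg 6, WT 8 or WT 10 (adjusted p from 0.0541 to 0.0943). Limma-voom and the fit of the compared groups alone also lost the WT call. After each library's trend over GC content and transcript length was removed, an alternative chosen after the data were seen, both differences were 0.13 (adjusted p = 0.103 and 0.132). The adjusted p of Nr3c1 ran from 0.000533 to 0.235 over 21 alternatives for M337V, 15 of which kept the call, and from 0.000701 to 0.132 over 19 for WT, 11 of which kept it. Oligodendrocyte markers moved with Nr3c1. Of the 10 markers, 6 were called higher in M337V and 7 in WT (3 in each without the library labelled NTg 4), and their summed level was 23454 to 27990 CPM in NTg, 34365 to 38263 CPM in WT and 31560 to 38937 CPM in M337V. Microglia markers were also above NTg in every transgenic library, at 321 to 383 CPM in NTg, 407 to 433 CPM in WT and 406 to 432 CPM in M337V, with 2 of 8 called higher in M337V (P2ry12 and Gpr34) and 1 in WT (P2ry12). Without the library labelled NTg 4 only P2ry12 was called among them, in both comparisons. Neutrophil markers were lower, at 147 to 493 CPM in NTg, 26.7 to 92.7 CPM in WT and 49.4 to 131 CPM in M337V, with 4 of 7 called in each comparison and 0 in either by edgeR without the library labelled NTg 4, where 6 (M337V) and 7 (WT) were below 0.05 unadjusted. Of 8 mural cell markers, 1 was called lower in M337V and 2 in WT, and their summed levels were 271 to 371 CPM in NTg, 217 to 231 CPM in WT and 246 to 324 CPM in M337V. The 371 CPM was in the library labelled NTg 4. Without that library 0 were called in M337V and 1 in WT by edgeR, with 1 and 4 below 0.05 unadjusted. No marker of these 4 lists was at 0 counts in any library, and their part in the Nr3c1 difference was not tested. In tissue RNA, fewer cells of a type and less RNA per cell cannot be told apart.

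Nr3c2 (ENSMUSG00000031618; GRCm38 chromosome 8, 76899442 to 77245012, plus strand) encodes the mineralocorticoid receptor, the high-affinity receptor of corticosterone and aldosterone. Its level was 52.9, 54.0 and 53.7 CPM in NTg, 54.7 and 54.2 CPM in WT, and 51.3, 49.8, 56.3, 52.4 and 52.6 CPM in M337V. These 10 values lay within 1.13-fold of each other, which placed Nr3c2 at 11306 of 11855 genes of at least 5 CPM ranked from the widest ratio of highest to lowest library. The log2 difference was -0.03 ± 0.05 (adjusted p = 0.764) for M337V and 0.02 ± 0.06 (adjusted p = 0.85) for WT, each against NTg. The 2 WT libraries lay just above the NTg libraries, a separation smaller than the spread within M337V.

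Fkbp5 (ENSMUSG00000024222; GRCm38 chromosome 17, 28399094 to 28517527, minus strand) encodes the co-chaperone that holds the receptor in a low-affinity state, and its transcript is widely used as a readout of receptor activity. It was measured at 23.0, 21.1 and 23.8 CPM in NTg, 21.7 and 20.7 CPM in WT, and 21.2, 22.9, 24.9, 19.2 and 21.5 CPM in M337V. All 3 groups overlapped. The log2 difference was -0.05 ± 0.08 for M337V against NTg (adjusted p = 0.774), -0.10 ± 0.10 for WT against NTg (adjusted p = 0.599) and 0.05 ± 0.10 for M337V against WT (adjusted p = 0.937). The highest and lowest libraries of Fkbp5 were both M337V, animals 3 and 7, at a ratio of 1.30.

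Tsc22d3 (ENSMUSG00000031431; GRCm38 chromosome X, 140539528 to 140600659, minus strand) encodes GILZ, the glucocorticoid-induced leucine zipper protein. Its level was 178, 245 and 211 CPM in NTg, 182 and 269 CPM in WT, and 187, 201, 208, 178 and 219 CPM in M337V. WT 10 and NTg 5 were highest, and M337V 7 and NTg 4 were lowest, so the high and low ends each mixed genotypes. The log2 difference was -0.09 ± 0.12 (adjusted p = 0.703) for M337V and 0.10 ± 0.16 (adjusted p = 0.741) for WT against NTg.

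Sgk1 (ENSMUSG00000019970; GRCm38 chromosome 10, 21882184 to 21999903, plus strand) encodes a kinase that regulates ion channels and transporters and is induced by both steroid receptors. It varied most of the 10 genes. Its level was 86.9, 192 and 171 CPM in NTg 4, 5 and 6, 73.0 and 244 CPM in WT 8 and 10, and 39.2, 39.1, 61.8, 79.2 and 138 CPM in M337V 1, 2, 3, 7 and 9. The ratio of the highest to the lowest library was 6.23, which ranked 98 among 11855 genes, where the median gene had a ratio of 1.29. The 3 lowest libraries were M337V 1, 2 and 3, but M337V 9 lay above NTg 4, so the groups overlapped.

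For M337V against NTg the Sgk1 log2 difference was -1.07 ± 0.44 (unadjusted p = 0.0339, adjusted p = 0.164 in edgeR's test), and it did not pass. For M337V against WT it was -1.15 ± 0.50 (unadjusted p = 0.0394, adjusted p = 0.743), and without WT 10 it was -0.03. For WT against NTg it was 0.08 ± 0.56 (adjusted p = 0.946), with WT 8 below and WT 10 above all 3 NTg libraries. Without the library labelled NTg 4 the M337V difference from NTg was -1.34 (adjusted p = 0.156).

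Library names give M337V 1 to 3 the numbers 10 to 12 and M337V 7 and 9 the numbers 5 and 7, and the labels do not call these batches. Sgk1 was 46.7 ± 13.1 CPM (SD, n = 3) in M337V 1 to 3 and 109 ± 41.6 CPM (SD, n = 2) in M337V 7 and 9, without overlap. The log2 difference within the genotype was -1.22 ± 0.46 (unadjusted p = 0.024, adjusted p = 0.394). Sgk1 was the only one of the 10 genes without overlap in this split, against 30.7% of all tested genes, and 0 of the 10 were called, against 0.145% of all tested genes. Limma-voom and DESeq2 also called 0 of the 10, and in all 3 tools 1 of the 10 had an unadjusted p below 0.05. Without M337V 7 and 9 the Sgk1 difference between M337V and NTg was -1.68 (adjusted p = 0.0428), and without M337V 1 to 3 it was -0.45 (adjusted p = 0.741). Over 21 alternatives the adjusted p of that difference ran from 0.0428 to 0.741.

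Immediate early genes respond within minutes to neuronal activity and handling, and their levels ran beside those of Sgk1 in some libraries. The summed level of 22 such genes was 325 to 344 CPM in M337V 1 to 3, 361 to 410 CPM in M337V 7 and 9, and 385 to 407 CPM in NTg. It was 351 CPM in WT 10, where Sgk1 was highest, and 388 CPM in WT 8, where Sgk1 was 73.0 CPM. The highest sum, 410 CPM, was in M337V 7, where Sgk1 was 79.2 CPM. Of these 22 genes, 1 was called lower in M337V 1 to 3 than in M337V 7 and 9, the activity-induced transcription factor gene Egr1 (log2 difference -0.86 ± 0.12, adjusted p = 0.031). Of all tested genes, 0.0658% were called lower in that comparison. DESeq2 called 4 of the 22 lower and limma-voom 2, Egr1 among them in both. Its levels were 22.0, 21.1 and 22.3 CPM against 36.2 and 43.0 CPM. Summed skeletal muscle and fat markers were at their lowest (18.1 CPM) in WT 10 and at their highest in NTg 6 (951 CPM), both of which had high Sgk1. In NTg 5 they were at 603 CPM and in WT 8 at 523 CPM, where Sgk1 was 192 and 73.0 CPM. They were at 136 CPM in NTg 4 and 28.1 to 153 CPM in M337V. The part of the immediate early genes, or of muscle and fat, in the Sgk1 values was not tested.

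Zbtb16 (ENSMUSG00000066687; GRCm38 chromosome 9, 48654297 to 48836222, minus strand) encodes the zinc finger repressor PLZF, a strongly steroid-induced gene in many tissues. Its levels were 21.3, 19.6 and 19.1 CPM in NTg, 21.5 and 24.3 CPM in WT, and 22.3, 21.9, 18.9, 19.4 and 27.2 CPM in M337V. M337V 9 held the highest value and M337V 3 the lowest. The log2 difference was 0.14 ± 0.11 (adjusted p = 0.488) for M337V and 0.20 ± 0.14 (adjusted p = 0.402) for WT against NTg. Both WT libraries lay above the NTg libraries, though WT 8 did so by less than 1 CPM.

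Pdk4 (ENSMUSG00000019577; GRCm38 chromosome 6, 5483351 to 5496309, minus strand) encodes the kinase that inhibits pyruvate dehydrogenase and spares glucose when fatty acids are burned. Its level was 28.0, 34.2 and 29.9 CPM in NTg, 37.5 and 40.5 CPM in WT, and 20.8, 27.7, 26.6, 20.1 and 31.8 CPM in M337V. The WT libraries were above all others, and M337V overlapped NTg through M337V 9. The M337V against WT log2 difference was -0.62 ± 0.15, a level 0.651 times that of WT, with unadjusted p = 0.00147 and adjusted p = 0.55 in edgeR's test. DESeq2 gave -0.62 with adjusted p = 0.0435, and over the 21 alternatives the adjusted p ran from 0.0435 to 0.998.

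Against NTg, the Pdk4 log2 difference was -0.27 ± 0.13 for M337V (adjusted p = 0.236) and 0.34 ± 0.17 for WT (adjusted p = 0.218). For M337V against WT, 0 of the 10 genes were called, and 0% of all tested genes were called by edgeR. At an unadjusted p below 0.05 there were 2 of the 10 (Sgk1 and Pdk4) and 1012 of all tested genes. DESeq2 called 1 of the 10 (Pdk4) and 30 of all genes, and limma-voom called 0 of either. Pdk4 was the only one of the 10 whose libraries did not overlap between M337V and WT, which held for 9.5% of all tested genes. In WT against NTg 4 of the 10 did not overlap (Nr3c1, Nr3c2, Zbtb16 and Pdk4, all higher in WT), a share close to the 41.7% of all tested genes without overlap (19.6% higher in WT).

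Hif3a (ENSMUSG00000004328; GRCm38 chromosome 7, 17031507 to 17062427, minus strand) encodes a hypoxia-inducible factor subunit, some forms of which restrain the other factors of the family. Its level was 7.49, 7.83 and 6.10 CPM in NTg, 5.70 and 7.89 CPM in WT, and 9.36, 7.30, 8.26, 3.88 and 8.58 CPM in M337V. Both extremes were M337V libraries, animal 1 and animal 7, and their ratio was 2.42. The log2 difference was 0.07 ± 0.23 (adjusted p = 0.89) for M337V and -0.07 ± 0.29 (adjusted p = 0.912) for WT against NTg, and both changed sign when single libraries were left out.

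Mt1 (ENSMUSG00000031765; GRCm38 chromosome 8, 94179082 to 94180327, plus strand) and Mt2 (ENSMUSG00000031762; 94172664 to 94173568 on the same strand) encode small proteins that bind zinc and copper. Mt1 was measured at 163, 219 and 161 CPM in NTg, 170 and 201 CPM in WT, and 210, 197, 186, 166 and 215 CPM in M337V. Mt2 was measured at 93.5, 148 and 107 CPM in NTg, 103 and 139 CPM in WT, and 116, 114, 104, 100 and 139 CPM in M337V. NTg 5 held the highest level of both genes, and the groups overlapped in both. For M337V against NTg the log2 difference was 0.11 ± 0.11 for Mt1 (adjusted p = 0.601) and -0.02 ± 0.15 for Mt2 (adjusted p = 0.955). For WT against NTg it was 0.03 ± 0.14 for Mt1 (adjusted p = 0.915) and 0.06 ± 0.19 for Mt2 (adjusted p = 0.868). Without the library labelled NTg 4, Nr3c1 was still the only one of the 10 genes called against NTg, and the WT differences of Sgk1 (-0.19), Tsc22d3 (-0.01), Mt1 (-0.03) and Mt2 (-0.07) changed sign.

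**Figure D2:**
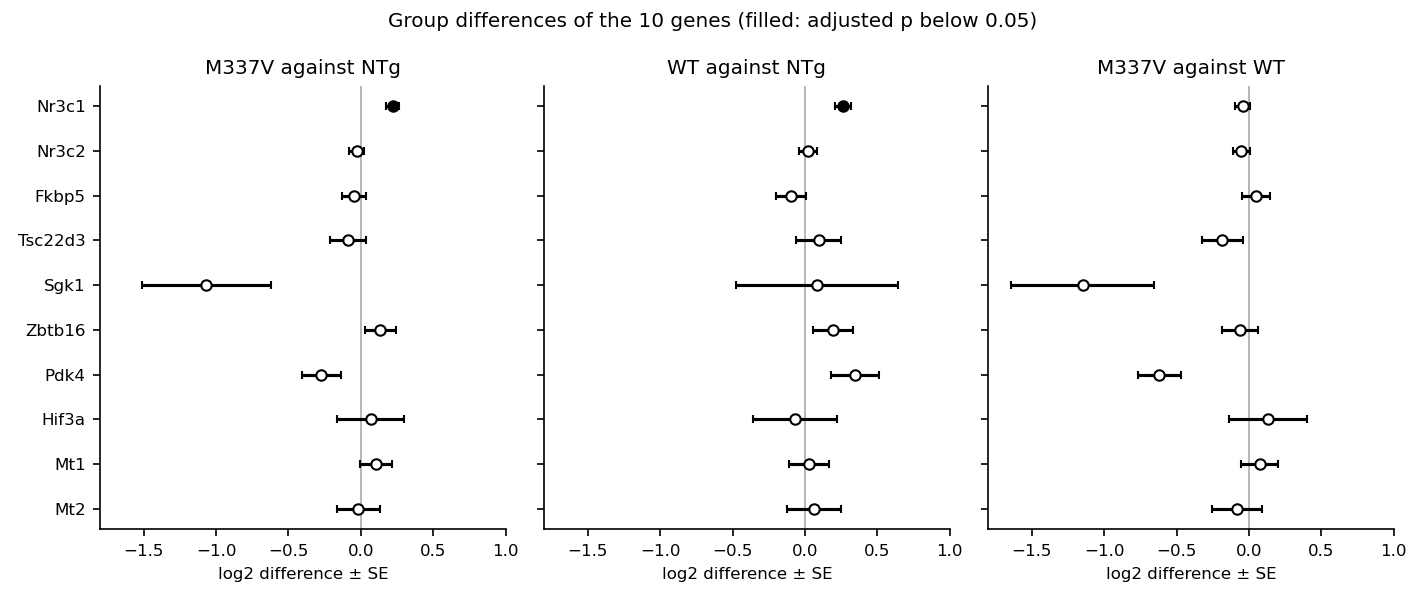
Log2 differences (x axis) of the 10 genes in the 3 comparisons of groups, with bars of 1 standard error from edgeR and filled points where adjusted p is below 0.05. NTg includes the library labelled NTg 4. Only Nr3c1 is filled, at 0.22 for M337V and 0.26 for WT against NTg, and Sgk1 has the widest bars, with -1.07 ± 0.44 for M337V against NTg.

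The 10 genes were next compared across libraries. WT 10 was among the 3 highest libraries for 7 of the 10 genes, and NTg 5 and M337V 9 for 5 each. M337V 7 was among the 3 lowest for 8 of the 10 (all except Sgk1 and Nr3c1) and among the 3 highest for 0. The 2 libraries of the WT group therefore differed: WT 8 was among the 3 highest for 3 genes (Pdk4, Nr3c1 and Nr3c2) and among the 3 lowest for 3 (Tsc22d3, Hif3a and Mt2). M337V 7 and M337V 9 stood at opposite ends, with M337V 9 among the 3 lowest for 0 genes.

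**Figure D3:**
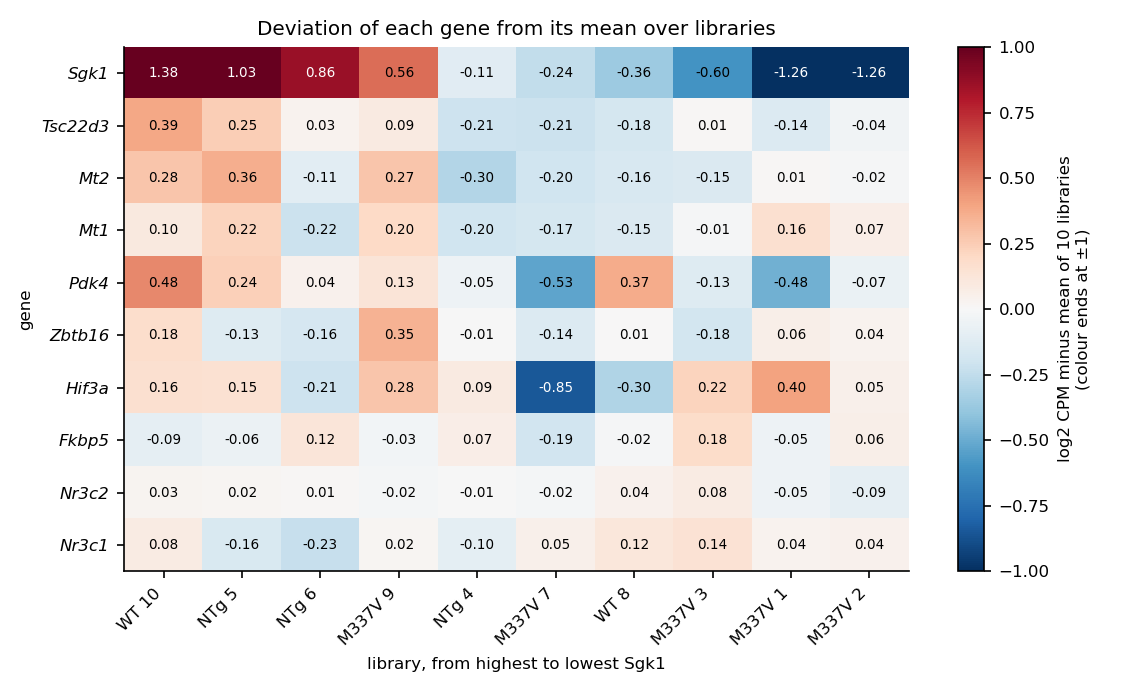
Log2 CPM of each gene (rows) in each library (columns, from highest to lowest Sgk1) minus that gene's mean over the 10 libraries, with red above and blue below the mean. Sgk1 runs from 1.38 in WT 10 to -1.26 in M337V 1 and 2, while Nr3c2 stays between -0.09 and 0.08.

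Over the 10 libraries, 45 pairs of genes were correlated on log2 CPM, 30 of them with a positive r, and 0 pairs had a permutation p below 0.05 after adjustment over the 45. Mt1 and Mt2 had r = 0.86 (permutation p = 0.00267, adjusted 0.0601) and rho = 0.84 (permutation p = 0.00412, adjusted 0.0927). Without NTg 4 and NTg 6, the 2 libraries farthest from the median of Mt1, r was 0.85, and with group means removed it was 0.92. The libraries with the highest Mt2 (NTg 5, WT 10 and M337V 9) came from 3 genotypes. Tsc22d3 and Mt2 had r = 0.84 (permutation p = 0.00218, adjusted 0.0601) and rho = 0.87 (permutation p = 0.00204, adjusted 0.0918), and r was 0.69 without WT 10 and NTg 5.

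Sgk1 and Tsc22d3 had r = 0.73 (permutation p = 0.0177, adjusted 0.199) and rho = 0.61 (permutation p = 0.0666, adjusted 0.483). Without WT 10 and NTg 5, the libraries with the highest Sgk1, their r was 0.37, and with group means removed it was 0.75. Leaving out the highest Sgk1 values also narrows its range, so the lower r cannot tell whether the relation rests on those libraries. Without M337V 1 to 3 r was 0.96. Fkbp5 had negative coefficients with Sgk1 (r = -0.18, permutation p = 0.61, adjusted 0.91; rho = -0.32, permutation p = 0.369, adjusted 0.665) and with Mt2. With Mt2 they were r = -0.33 (permutation p = 0.345, adjusted 0.763) and rho = -0.38 (permutation p = 0.279, adjusted 0.606). Without M337V 3 and M337V 7, the libraries farthest from the median of Fkbp5, r was -0.20 with Sgk1 and -0.71 with Mt2. The receptor genes Nr3c1 and Nr3c2 had r = 0.10 (permutation p = 0.772, adjusted 0.939) and rho = 0.37 (permutation p = 0.295, adjusted 0.606), and r was 0.51 without NTg 5 and NTg 6.

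**Figure D4:**
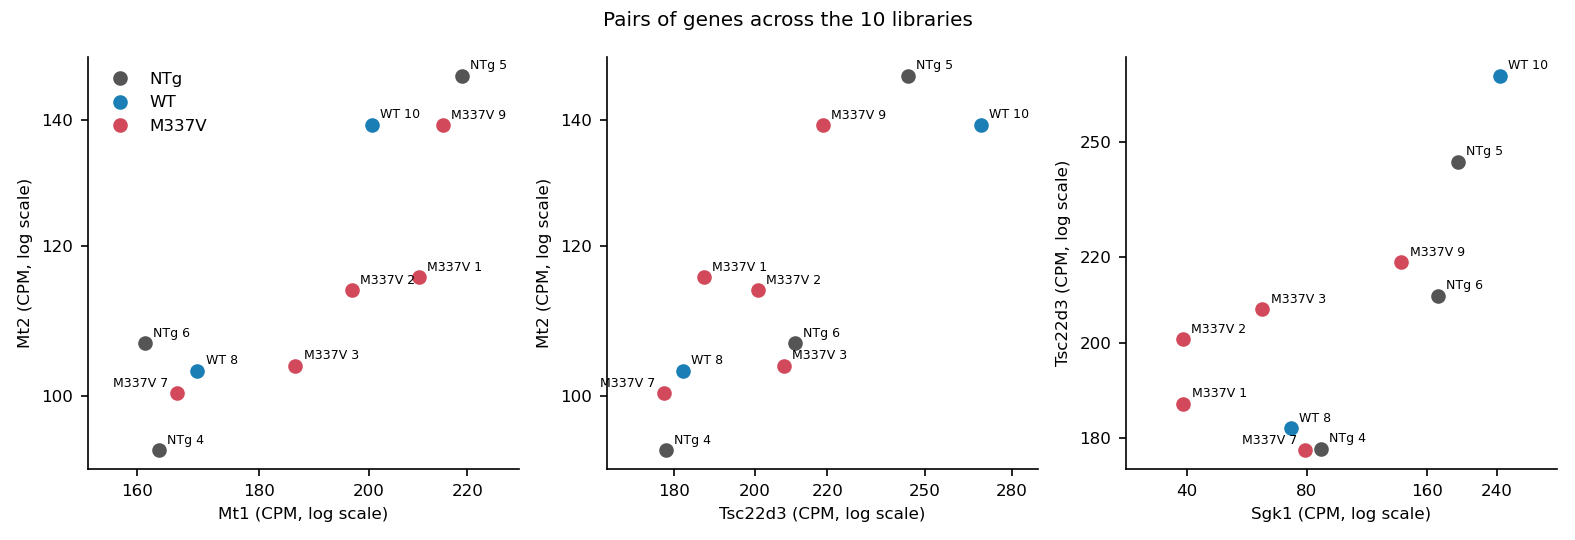
Levels (CPM, log scales) of Mt2 against Mt1, Mt2 against Tsc22d3, and Tsc22d3 against Sgk1, with 1 labelled point per library and colours for NTg, WT and M337V. NTg 5, WT 10 and M337V 9 are the 3 highest for Mt2 and for Tsc22d3, and M337V 1 and 2 stand at the lowest Sgk1 with middle levels of Tsc22d3.

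For each gene the transcripts with the most similar levels over the 10 libraries were sought among 11607 named genes of at least 5 CPM. Sgk1 was most like Plekhf1, which encodes an endosomal phosphoinositide-binding protein (r = 0.99, rho = 0.98), then Srpr (r = 0.95) and Ccdc117 (r = 0.95). Plekhf1 was at 7.88 and 7.89 CPM in M337V 1 and 2 and at 13.9 CPM in WT 10. Nr3c1 was most like the calcium channel subunit gene Cacnb4 (r = 0.99, rho = 1), then Smim10l1 and Usp25 (both r = 0.98). Cacnb4 was at 234 to 248 CPM in NTg and 277 to 306 CPM in the transgenic libraries. Among the transcripts closest to Pdk4 were Zfp410 (r = 0.89) and Cpt1a (r = 0.87), which encodes the enzyme that admits fatty acids to mitochondria.

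The closest transcripts of the other genes were Apmap, Cct3 and Slc25a33 for Tsc22d3 (r = 0.95, 0.94 and 0.94), and Pla2g7, Lhpp and Ddo for Mt2 (r = 0.96, 0.93 and 0.91). Mt1 was most like Cyp2j9, Rpn1 and Bcs1l (r = 0.93, 0.91 and 0.91). Zbtb16 was most like Ascc3, Spire1 and Chd9 (r = 0.93, 0.88 and 0.85), and Fkbp5 like Lrfn5, Pxdc1 and Ttll11 (r = 0.89, 0.88 and 0.85). Nr3c2 was most like Ehd3, Flt3 and the motor neuron transporter gene Slc18a3 (r = 0.95, 0.92 and 0.91), and Hif3a like Smim18, Cinp and Anapc4 (r = 0.92, 0.85 and 0.85). These coefficients are among the highest of 11607 for each gene over only 10 libraries that share a tissue and a similar depth, and they describe likeness in these libraries.

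Around the receptors, 1 of 16 chaperone genes was called in M337V against NTg, in the higher direction, where 2.67% of all tested genes were called higher. It was Ptges3, which encodes the HSP90 co-chaperone p23 (log2 difference 0.23 ± 0.06, adjusted p = 0.0475), at 137 to 156 CPM in NTg and 156 to 181 CPM in M337V. Of the 16 receptor co-regulators 0 were called in either comparison with NTg, where Carm1 had the smallest p (log2 difference -0.19, adjusted p = 0.107 for M337V and -0.27, adjusted p = 0.0703 for WT). At an unadjusted p below 0.05 there were 4 of the 16 for M337V and 3 for WT, limma-voom also called 0, and DESeq2 called Carm1 lower and Ppargc1a higher in WT. The chaperones had 0 calls in WT by edgeR or limma-voom, with 4 below 0.05 unadjusted in each, while DESeq2 called 3 higher (Hsp90aa1, St13 and Ptges3). Of 8 tested genes of steroid supply 0 were called against NTg by edgeR, DESeq2 or limma-voom, with 2 (M337V) and 1 (WT) below 0.05 unadjusted in edgeR, and H6pd, which feeds the enzyme that regenerates corticosterone, was at -0.34 (adjusted p = 0.097) and -0.40 (adjusted p = 0.112). The median log2 difference between M337V and NTg was 0.05 for the chaperones, 0.03 for the co-regulators and 0.03 for steroid supply, beside -0.01 for all tested genes.

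A list of 35 other glucocorticoid-induced genes, 34 of them tested, had a median log2 difference of -0.17 between M337V and NTg, beside -0.01 for all tested genes. In it 5 genes were called lower and 1 higher, where 1.61% and 2.67% of all tested genes were. Arl4d, which encodes a small GTPase, was at 12.9, 22.0 and 23.3 CPM in NTg and 7.83, 7.14, 8.41, 9.98 and 12.1 CPM in M337V, a log2 difference of -1.10 ± 0.24 (adjusted p = 0.0336). The clock gene Per1 was at 39.1, 53.7 and 60.6 CPM in NTg and 26.9, 22.7, 26.9, 35.1 and 39.6 CPM in M337V, a log2 difference of -0.76 ± 0.18 (adjusted p = 0.0412). M337V 9 overlapped NTg 4 for Per1, and the groups did not overlap for Arl4d.

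Ddit4, which encodes a stress-induced inhibitor of mTORC1, was at 52.1, 73.3 and 66.4 CPM in NTg and 37.5, 37.4, 36.9, 46.5 and 47.8 CPM in M337V. Its log2 difference was -0.63 ± 0.12 (adjusted p = 0.024). The phosphatase gene Dusp1 (-0.47, adjusted p = 0.0347) and Txnip (-0.41, adjusted p = 0.049), which encodes a thioredoxin-binding protein, were also lower and are named after their values were seen. Rhou, which encodes a small GTPase, was higher (0.23 ± 0.05, adjusted p = 0.0375). The remaining 28 tested genes of the list were not called, among them Klf9, at 94.5 to 109 CPM in NTg and 97.1 to 110 CPM in M337V.

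Which libraries were in the fit changed this list. Without NTg 5, NTg 6, M337V 2 or M337V 3, or without M337V 1 to 3 together, 0 of the 34 were called lower, and without M337V 7 and 9 there were 10. Without M337V 1 there was 1 (Ddit4). With GC content and length trends removed 0 were called lower. Without the library labelled NTg 4 there were 4 (Ddit4, Per1, Dusp1 and Arl4d), and the calls of Txnip and Rhou (0.18, adjusted p = 0.113) were lost. DESeq2 called 7 lower and limma-voom 8. As with Sgk1, M337V 1 to 3 were below the other M337V libraries and NTg. Their mean deviation over the list was -0.23, -0.25 and -0.13 on the log2 scale. It was -0.01 and 0.13 in M337V 7 and 9, 0.16 to 0.26 in NTg, -0.16 in WT 8 (below M337V 3) and 0.05 in WT 10. The immediate early genes had a like order, at -0.37, -0.26 and -0.22 in M337V 1 to 3, 0.16 and 0.08 in M337V 7 and 9 and 0.21 to 0.28 in NTg. Endothelial markers stood at -0.21, -0.21 and -0.12 in M337V 1 to 3, 0.15 and 0.29 in M337V 7 and 9 and 0.06 to 0.19 in NTg. Of these 8 markers 0 were called in M337V against NTg by edgeR, DESeq2 or limma-voom, with 1 below 0.05 unadjusted in edgeR, and Cdh5 was called lower in M337V 1 to 3 than in M337V 7 and 9. Neutrophil markers, 4 of 7 of them called lower in M337V than in NTg, stood at -0.81, -0.32 and -0.998 in M337V 1 to 3, -0.20 and 0.38 in M337V 7 and 9 and 0.57 to 2.26 in NTg. In WT 8 and WT 10 the immediate early genes stood at -0.07 and -0.10, and endothelial markers at 0.02 and -0.27. Neutrophil markers stood at -1.95 and -0.10 there. WT 10 was thus the lowest library for endothelial markers and WT 8 for neutrophil markers. The part of these 3 groups of genes in the list's values was not tested.

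**Figure D5:**
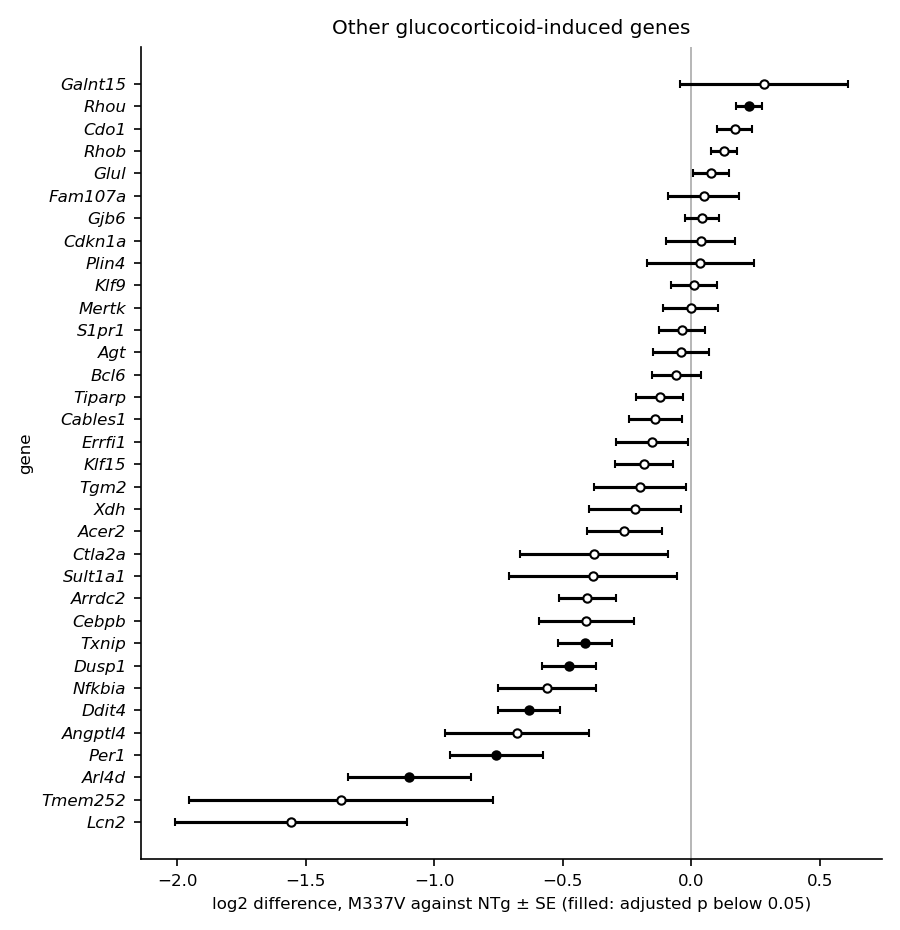
Log2 differences (x axis) between M337V and NTg of the 34 tested genes of the list of other glucocorticoid-induced genes, with bars of 1 standard error from edgeR and filled points where adjusted p is below 0.05. NTg includes the library labelled NTg 4. The filled points are Arl4d, Per1, Ddit4, Dusp1 and Txnip to the left of 0 and Rhou to the right.

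In WT against NTg the list had 1 gene called higher, Rhou (0.48 ± 0.06, adjusted p = 0.00804), and 1 called lower, Txnip (-0.63 ± 0.14, adjusted p = 0.0261), where 3.59% and 2.05% of all tested genes were. The Txnip call was lost without any single library of NTg or WT (adjusted p from 0.0542 to 0.105; 0.0614 without the library labelled NTg 4), with limma-voom (0.0698) and with the compared groups alone (0.0558), and over 19 alternatives its adjusted p ran from 0.000554 to 0.157. The Rhou call was kept in all 19, among them the fit without the library labelled NTg 4. The list's median was -0.13 beside -0.02 for all tested genes. Rhou was at 95.5, 109 and 103 CPM in NTg and 147 and 138 CPM in WT. In M337V against WT 0 of the 34 were called, and Rhou had the smallest p (log2 difference -0.25 ± 0.06, unadjusted p = 0.000882, adjusted p = 0.496). Limma-voom also called 0, DESeq2 called Rhou (adjusted p = 0.0335), and its adjusted p over 21 alternatives ran from 0.0335 to 0.998. Within M337V, Tmem252 was called lower in animals 1 to 3 (0.102, 0.376 and 0.470 CPM) than in animals 7 and 9 (2.02 and 2.03 CPM), with a log2 difference of -2.66 ± 0.42 (adjusted p = 0.0436), where 0.0658% of all tested genes were called lower. That call was lost when NTg 5, NTg 6 or any single M337V library was left out (adjusted p from 0.0641 to 0.252). Of 10 tested genes that glucocorticoids lower, 0 were called in any of these comparisons by edgeR, and the smallest p belonged to Il1a in M337V against NTg (log2 1.03, adjusted p = 0.104), Ptgs2 in WT against NTg (-1.12, adjusted p = 0.101), Crh in M337V against WT (1.38, unadjusted p = 0.00268) and Icam1 within M337V (-0.79, adjusted p = 0.324). DESeq2 and limma-voom also called 0 of these 10, and edgeR had 4, 1, 3 and 1 of them below 0.05 unadjusted in that order of comparisons.

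The pathways of the single genes were read beside all tested genes, of which 2.67% were called higher and 1.61% lower in M337V, and 3.59% higher and 2.05% lower in WT, each against NTg. No test set these lists apart from other genes. Of 12 tested genes of sodium handling by aldosterone, the setting in which Sgk1 and Nr3c2 are best known, 2 were higher in both comparisons with NTg. They were Slc12a2, which encodes the NKCC1 cotransporter (0.35 ± 0.07 for M337V, adjusted p = 0.0236, and 0.51 ± 0.08 for WT, adjusted p = 0.012), and Stk39, which encodes the SPAK kinase that activates it (0.24 and 0.32, adjusted p = 0.038 and 0.0244). Slc12a2 was at 320 to 369 CPM in NTg, 398 to 474 CPM in M337V and 492 to 494 CPM in WT, without overlap between NTg and the others. Of 13 tested genes of the SGK1 kinase pathway, 0 were called for M337V, and those higher in WT included Sgk3 (0.43, adjusted p = 0.0421) and Pdpk1 (0.21, adjusted p = 0.0354). Pdpk1 encodes the kinase that activates SGK1. For M337V 5 of the 13 were below 0.05 unadjusted in edgeR, and both DESeq2 and limma-voom called Pdpk1 and Sgk3 higher.

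Among 20 genes of the switch between glucose and fatty acids, 1 was called, Pdp1, which encodes the phosphatase that opposes PDK4, higher in WT than in NTg (0.31 ± 0.07, adjusted p = 0.0256). For M337V it was 0.21 (adjusted p = 0.0518), 0 of the 20 were called by edgeR with 6 below 0.05 unadjusted, and DESeq2 and limma-voom each called Pdp1. Of 18 tested hypoxia-inducible factors and targets 1 was called, the lactate dehydrogenase gene Ldha, lower in M337V than in NTg (-0.29 ± 0.07, adjusted p = 0.0397). Of 15 tested metal response genes 1 was higher in both comparisons, the glutathione synthesis gene Gclm (0.24 and 0.35, adjusted p = 0.0285 and 0.0151). The list of 16 core clock genes left out Per1, given above with the glucocorticoid-induced genes and called lower in M337V (-0.76, adjusted p = 0.0412). Of these 16, Clock was higher in both (0.24 and 0.26, adjusted p = 0.0225 and 0.0238) and Nr1d2 was higher in WT (0.28, adjusted p = 0.0425). Per2 was lower in M337V (-0.60 ± 0.10, adjusted p = 0.0189), at 17.3 to 21.5 CPM in NTg and 11.1 to 14.6 CPM in M337V. Without the library labelled NTg 4, the calls of Slc12a2, Gclm and Per2 held for M337V and those of Ptges3, Stk39, Ldha and Clock were lost. For WT those of Slc12a2, Gclm and Sgk3 held and the others named here were lost.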

How the data were processed

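The authors deposited whole-number read counts per gene for 10 libraries, without normalisation. Per the labels' protocols, polyA RNA went into stranded TruSeq libraries sequenced as pairs on a HiSeq instrument. Tools listed in the submitters' processing notes, without their roles, are the counters featureCounts, Salmon 0.8.2 and Subread 1.4.6, the aligner STAR 2.4.2a, R 3.3.0 with DESeq2 1.14.1, Trimmomatic 0.32, Picard 2.6.0 and FastQC 0.11.2. The build and annotation were not given in the sources used here.

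Gene names and coordinates came from a GENCODE annotation of GRCm38, which named 21775 of 22024 identifiers. Groups came from the titles, and each animal gave 1 library, so p-values measure the spread between animals. The counts were fitted with edgeR 4.0.16 in R 4.3.3 (filterByExpr with a minimum count of 10 and a total of 15, TMM, a mean per group, glmQLFTest), and Benjamini-Hochberg adjustment ran over all 15191 genes at 0.05. CPM values are scaled by TMM. Correlations used log2 CPM (prior count 2) and 100000 permutations, two-sided. The script was tested on simulated data.

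The 10 genes and all lists were chosen with earlier results of these data known. All 10 genes were named, and per list and comparison up to 3 called genes in each direction or, with no call, the gene of smallest p; the 3 most alike genes had to reach a mean of 5 CPM. Alternatives were RLE factors, no filter, a group mean of at least 1 CPM in all groups, only the compared groups, limma-voom (limma 3.58.1), DESeq2 1.42.0, robust dispersions, left-out libraries and, chosen after the data were seen, removal of GC content and length trends through offsets. No pair of libraries agreed within counting noise (lowest chi-square per degree of freedom 4.87, between M337V 1 and 2). Some genes that the naming rule would include are not reported here.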

Additional observations from a re-analysis of the deposited data

Results flagged for a closer look

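In 86 groups of 5 libraries, each gene's highest and lowest M337V values were compared with the other 4, and 5 stood apart by the gap to the nearest library relative to the whole range. Chance flags about 1 in 20 groups. Of the 10 genes, Nr3c1 was among them: M337V 3 stood at 150 CPM and the other M337V libraries at 138 to 141 CPM. Cacnb4, the transcript most like Nr3c1, was at 306 CPM in the same library and at 277 to 283 CPM in the other 4. The muscle atrophy gene Fbxo32 was at 61.9 CPM in M337V 9 and at 75.4 CPM or more elsewhere in the group. M337V 7 was low for Cinp, at 14.2 CPM against 16.7 to 17.1 CPM, and for Cyp2j9, at 40.8 CPM against 47.3 to 49.8 CPM. These 2 genes were among those most like Hif3a and Mt1, and M337V 7 held the lowest M337V level of both Hif3a and Mt1. Cacnb4, Cinp and Cyp2j9 were named for their likeness over these same libraries, so sharing an extreme library adds no separate support.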

How the results depend on the processing

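Over the alternatives, the differences of the 10 genes kept their direction and side of the threshold in 703 cases, lost the call in 14, gained it in 2 and changed sign in 61. Genes called in M337V against NTg (651) numbered 1035 with the compared groups alone, 1315 with limma-voom, 1499 with DESeq2, 432 without both NTg 4 and WT 8, 3 without M337V 1 to 3, 1133 without M337V 7 and 9, 186 with GC content and length trends removed and 2 to 1062 with single libraries left out. Of the 10 genes, 0 were called without M337V 1 to 3 or with those trends removed, 2 without M337V 7 and 9, and 0 to 1 with single libraries left out. In WT against NTg (857) the counts were 239 with the compared groups alone, 215 with limma-voom, 1720 with DESeq2, 133 without both NTg 4 and WT 8, 417 with trends removed and 73 to 1079 with single libraries left out. Of the 10 genes, 0 were called in each of these except DESeq2 (1), and 0 to 1 with single libraries left out. In M337V against WT (0) there were 1 without a filter, 1 with robust dispersions, 30 with DESeq2 (1 of the 10 genes), 4 without M337V 7 and 9 and 0 to 3 with single libraries left out. Within M337V (22) there were 97 with limma-voom, 153 with DESeq2 and 1 to 64 with single libraries left out. The causes of these changes were not tested. Of the 45 pairs of genes, 0 passed with all libraries or without the 2 farthest.

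Changes of sign were among differences near 0 or spread over libraries. With single libraries left out, log2 differences between M337V and NTg ran from -0.20 to 0.029 for Tsc22d3, -0.15 to 0.19 for Mt2, -0.036 to 0.24 for Hif3a and -0.095 to 0.0049 for Fkbp5. Between WT and NTg they ran from -1.03 to 0.71 for Sgk1, -0.20 to 0.36 for Tsc22d3, -0.085 to 0.19 for Mt1, -0.16 to 0.28 for Mt2 and -0.31 to 0.15 for Hif3a. Between M337V and WT they ran from -0.079 to 0.39 for Hif3a, -0.042 to 0.20 for Mt1, -0.44 to 0.12 for Tsc22d3, -0.15 to 0.027 for Zbtb16, -0.28 to 0.15 for Mt2, -9.2e-05 to 0.093 for Fkbp5 and -0.42 to 0.038 for Dnajb1. Between M337V 1 to 3 and M337V 7 and 9 they ran from -0.057 to 0.036 for Nr3c2, -0.14 to 0.16 for Tsc22d3, -0.35 to 0.31 for Pdk4, -0.00071 to 0.055 for Nr3c1, -0.051 to 1.10 for Hif3a, -0.13 to 0.25 for Mt1, -0.38 to 0.11 for Zbtb16 and -0.33 to 0.14 for Mt2. Without M337V 1 to 3, M337V against NTg was -0.19 for Hif3a and 0.054 for Mt2, and M337V against WT was -0.061 for Fkbp5, 0.023 for Zbtb16 and -0.13 for Hif3a. Fkbp5 in M337V against NTg was 0.027 without M337V 7 and 9 and 0.0090 with trends removed, and Abcb1a in M337V against WT was -0.0033 without M337V 7 and 9. Sgk1 in WT against NTg was -0.23 with limma-voom. Without both NTg 4 and WT 8, Hif3a was 0.18 in WT against NTg, and M337V against WT was -0.078 for Hif3a and -0.042 for Mt1. Within M337V, Nr3c2 was -0.0013 with RLE factors, -0.0054 with the filter of 1 CPM, -0.023 with limma-voom and -0.0012 with DESeq2, Tsc22d3 was -0.0029 with that filter and -0.0094 with trends removed, and Mt1 was -0.020 with trends removed.

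No paired analysis was possible because the litters were not given in the sources used here. Without WT 8 or WT 10, or without M337V 7 or 9 within M337V, 1 library stands for its group and is assumed to vary like the others. The removal of trends was chosen after the data were seen. Counting error alone gives a log2 SD of 0.045 for Nr3c2, beside a within-group SD of 0.050, 0.069 beside 0.12 for Fkbp5 and 0.028 beside 0.052 for Nr3c1, so depth limits these genes too, while for Sgk1 it gives 0.037 beside 0.81. Each comparison with WT is limited by its 2 animals.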

Other observations

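Klf2 encodes a zinc finger factor of endothelium and T cells that responds quickly to flow and stress. It was the 1 of 22 immediate early genes that edgeR called lower in M337V than in NTg, where 1.61% of all tested genes were called lower. DESeq2 and limma-voom each called 4 lower (Klf2, Nr4a1, Fosl2 and Ier2), and they called 1499 and 1315 of all genes in either direction. The list of 22 left out Dusp1, given above and also called lower by edgeR (-0.47, adjusted p = 0.0347). Klf2 was at 10.1, 11.4 and 12.2 CPM in NTg and at 3.63, 4.02, 4.81, 8.11 and 7.69 CPM in M337V, a log2 difference of -0.99 ± 0.24 (adjusted p = 0.0438 in edgeR's test). The call was lost without the library labelled NTg 4 (-1.05, adjusted p = 0.0776), and 11 of 21 alternatives kept it (adjusted p from 0.003 to 0.261). The groups did not overlap, and M337V 1 to 3 were lowest. The median difference of the 22 genes was -0.42, beside -0.01 for all tested genes, with 5 of the 22 above 0. In WT against NTg 0 of the 22 were called, and Egr2, a transcription factor gene that Schwann cells also express, had the smallest p (log2 difference -3.12, adjusted p = 0.0718). There 3 of the 22 were below 0.05 unadjusted, limma-voom also called 0 and DESeq2 called Egr2 and Klf2 lower.

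Trim63 and Fbxo32 encode ubiquitin ligases that glucocorticoids induce in wasting muscle, and 0 of 4 tested genes of that kind were called in any comparison by edgeR. Trim63 had a log2 difference of -2.15 ± 0.68 between M337V and NTg (adjusted p = 0.0852). Its levels were low, at 0.343, 1.87 and 2.14 CPM in NTg and 0.104 to 0.627 CPM in M337V. Unadjusted, 3 of the 4 were below 0.05 for M337V and 1 for WT against NTg, limma-voom called 0, and DESeq2 called Trim63 lower in M337V and Fbxo32 higher in WT. Skeletal muscle and fat markers moved with it, at summed levels of 136 to 951 CPM in NTg, 18.1 to 523 CPM in WT and 28.1 to 153 CPM in M337V, and their part in the value was not tested.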
